A study of Rattus norvegicus with 3 samples.

Results

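The genes of the 3 fibrinogen chains, Fga (ENSRNOG00000024848), Fgb (ENSRNOG00000007092) and Fgg (ENSRNOG00000025074), and of haptoglobin, Hp (ENSRNOG00000014964), were followed through 3 libraries of adult rat liver. These 4 genes were chosen by identifier from the 26404 gene identifiers in the count tables, as plasma proteins of the acute phase. Earlier results of these data were known when they were chosen. Each had at least 8514 reads in every library. The healthy library came from untreated animals. The saline library came from animals given 1 ml of saline and the etanercept library from animals given etanercept at 9 mg/kg in 1 ml, and both of these groups then lost 2/3 of the liver by partial hepatectomy and were sampled 32 hours later. Etanercept was given 16 to 18 hours before the operation. It is a TNF receptor fused to an antibody Fc part, which captures TNF before it can reach cell-surface receptors. Every library was made from liver RNA pooled over 3 rats, so a group is 1 library and no spread between animals could be measured. No sham-operated animals and no rats given etanercept without hepatectomy were among the groups, and the strain is not given in the sources used here.

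Fibrinogen is secreted by hepatocytes as a dimer of an alpha, a beta and a gamma chain. Thrombin cuts short peptides from the alpha and beta chains, and the resulting fibrin monomers assemble into the clot. Haptoglobin, also a hepatocyte product, binds free haemoglobin in plasma so that macrophages can take up the complex. All of these are positive acute phase proteins: IL-6, acting through STAT3 and together with glucocorticoids, raises their synthesis in the inflamed or injured liver. The 3 fibrinogen genes lie side by side in the order Fgg, Fga, Fgb on chromosome 2 in the rat RefSeq assembly GRCr8, while Hp lies on chromosome 19.

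The promoter sequences of the chain genes are shown because the chains of this cluster are commonly described as regulated together and did not move together here. RefSeq windows (GRCr8) were matched for 3 of the 4 genes, Fga, Fgb and Fgg. Hp had no entry. The 250 bases before the annotated start are given from 5′ to 3′ on the gene's own strand. Capitals mark CTGGGA, the core of the IL-6 response element of type II acute phase genes, or its reverse complement, and in Fgg also the TATA box TATAAA. For Fga, which has 2 listed starts, the window of the start farther upstream is shown.
Fga, chr2:170671919-170672168, plus strand: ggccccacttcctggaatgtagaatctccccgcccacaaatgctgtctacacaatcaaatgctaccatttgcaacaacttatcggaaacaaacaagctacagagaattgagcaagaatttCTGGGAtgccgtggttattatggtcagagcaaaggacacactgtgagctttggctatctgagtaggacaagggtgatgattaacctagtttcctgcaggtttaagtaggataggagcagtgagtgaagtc
Fgb, chr2:170700876-170701125, minus strand: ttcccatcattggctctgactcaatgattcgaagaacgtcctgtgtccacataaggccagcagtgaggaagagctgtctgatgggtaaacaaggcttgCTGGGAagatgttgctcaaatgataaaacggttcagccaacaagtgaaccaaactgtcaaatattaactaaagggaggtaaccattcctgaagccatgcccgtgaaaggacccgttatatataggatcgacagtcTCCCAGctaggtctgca
Fgg, chr2:170652833-170653082, plus strand: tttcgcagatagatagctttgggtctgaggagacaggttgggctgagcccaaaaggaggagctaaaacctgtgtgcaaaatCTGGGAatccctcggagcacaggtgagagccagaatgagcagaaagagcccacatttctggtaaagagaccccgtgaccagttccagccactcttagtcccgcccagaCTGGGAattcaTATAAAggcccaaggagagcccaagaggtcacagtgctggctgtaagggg

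The motif CTGGGAA was searched on both strands and matched once in the Fgb window, 152 bases before the start, and at 2 places in the Fgg window, 169 and 61 bases before it. Fga had no match to these letters. Of all 33469 promoter windows of this length, 9.56% held CTGGGAA. The shorter CTGGGA, which lies within CTGGGAA and was added after the windows had been seen, occurred in all 3 chain windows, in Fga at 130 bases before the start, and in 25.7% of all windows. The windows shown of Fga and Fgb each held 1 match to TTCNNNGAA, the STAT motif, which 7.67% of all windows held. The window of the other listed Fga start held none, as that match lies beyond its upstream end. Fga (both windows) and Fgb each held 1 match to GTTAAT, an HNF1 half-site, held by 6.45%. The C/EBP-like motif TTNNGNAA matched once in Fga and at 2 places in Fgb (37.2% of all windows). Fgg alone of the 3 held the exact letters TATAAA (12.9% of all windows). The Fgb window holds the similar run TATATATA, which that search does not match. Fgg alone also held an NF-kB-like motif (GGG, any 5 bases, CC), with 2 matches that overlap each other on opposite strands (42.3% of all windows). A match is a description of letters in this window.

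**Figure D1:**
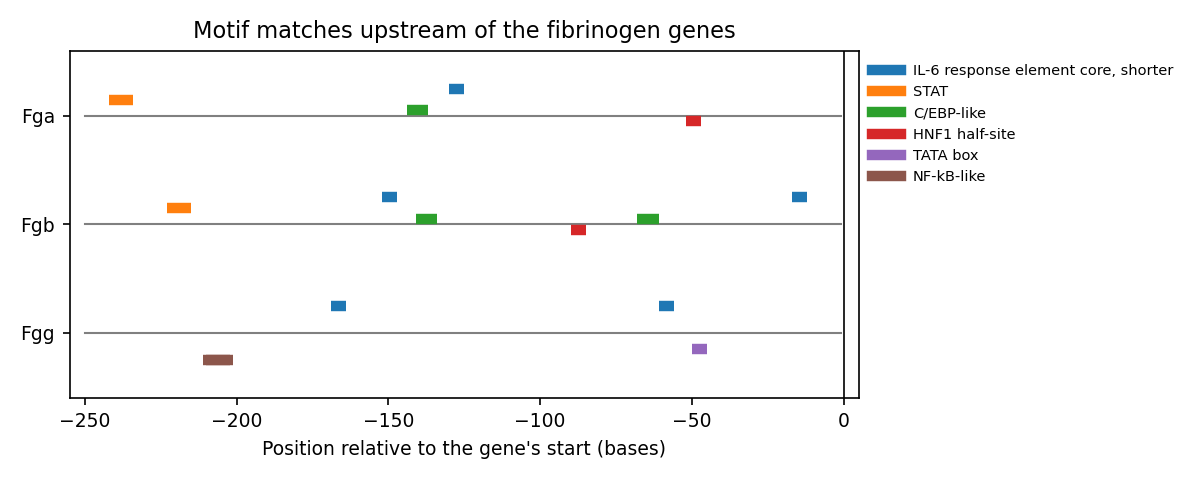
Matches to 6 motifs in the 250 bases before the annotated start of each fibrinogen gene, with position in bases relative to the start on the horizontal axis and 1 row of motif tracks per gene. All 3 genes hold the shorter IL-6 response element core, while the windows shown of Fga and Fgb but not Fgg hold STAT, C/EBP-like and HNF1 matches (the window of the other Fga start holds no STAT match).

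The libraries differed in depth and in the share of reads outside genes. Reads assigned to genes numbered between 2645152 and 5993834 per library. Alignment entries at several places numbered 23930072 in healthy, 14151091 in saline and 36628956 in etanercept. They are entries and not reads, and entered no count or scaling used here. Of the uniquely aligned reads, 19.9% lay in no gene in healthy, 21.7% in saline and 77.4% in etanercept. The part of this difference in the results below was not tested. Levels are given as CPM (counts per 10 to the power 6 scaled gene reads), with each library scaled by the trimmed mean of M-values (TMM). Folds compare these levels after 0.5 is added to every count. To be called, a gene needed a difference of 2-fold or more, up or down, and 5 CPM or more in whichever library was higher. With 1 library per group no test between groups is possible. Intervals are exact 95% intervals of counting error only, and hold no variation between animals or preparations. The tables give identifiers without names, 0 of 26404 identifiers matched the reference gene table, and the labelled tissue was therefore not checked against liver markers beyond these 4 genes. Lists of fibrin partners, haem handling, acute phase, IL-6 and TNF signalling genes were not scored for the same reason.

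In the etanercept library the fibrinogen chains parted. By TMM-scaled level Fga was 2.53-fold lower than in the saline library, while Fgb was 3.45-fold and Fgg 2.54-fold higher. Per uniquely aligned read Fgb and Fgg were lower too, on a scale where 91.2% of all tested genes were at least 2-fold lower. Hp was highest in the saline library and lowest in the etanercept library. From healthy to saline the TMM-scaled level of each chain differed by at most 1.09-fold, and Hp was 1.43-fold higher in saline. Per total gene reads these log2 folds were 0.48 for Fga, 0.44 for Fgb, 0.57 for Fgg and 0.96 for Hp.

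Fga encodes the alpha chain, which carries fibrinopeptide A and the long flexible region that is cross-linked in the clot. It had 34109 reads in healthy (6350.3 CPM), 20963 reads in saline (6479 CPM) and 8514 reads in etanercept (2564 CPM). The first 2 values nearly coincide and the etanercept library stands well below them. The etanercept level was 2.53-fold below saline (interval 2.46 to 2.59) and 2.48-fold below healthy (2.42 to 2.54). The saline level was 1.02 times the healthy one, with an interval of 1.003 to 1.04.

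Fgb encodes the beta chain, which carries fibrinopeptide B. Its reads numbered 28336 (5275 CPM) in the healthy, 17007 (5256 CPM) in the saline and 60261 (18149 CPM) in the etanercept library. Here too healthy and saline nearly coincide, but the etanercept library stands far above them. It was 3.45-fold above saline (interval 3.39 to 3.51) and 3.44-fold above healthy (3.39 to 3.49). Saline over healthy was 0.996, with an interval of 0.977 to 1.02 that includes no change.

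Fgg encodes the gamma chain, whose end holds the site by which fibrinogen binds the platelet integrin. It had 14650 reads in healthy (2727 CPM), 9609 reads in saline (2969.6 CPM) and 25061 reads in etanercept (7548 CPM). The order is healthy, saline, etanercept, with a small first step and a large second one. Etanercept was 2.54-fold above saline (interval 2.48 to 2.602) and 2.77-fold above healthy (2.71 to 2.82). Saline was 1.09-fold above healthy (1.06 to 1.12).

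Hp encodes haptoglobin, a single precursor that is cut into its 2 chains. It had 59998 reads in healthy (11170.1 CPM), 51553 in saline (15932 CPM) and 19869 in etanercept (5984 CPM). The saline library is highest and the etanercept library lowest, so healthy lies between the hepatectomy libraries. The saline level was 1.43-fold above healthy (interval 1.41 to 1.44). In the etanercept library Hp was 2.66-fold below saline (2.62 to 2.71) and 1.87-fold below healthy (1.84 to 1.90). The liver was sequenced as bulk tissue, in which fewer cells of a type and less RNA per cell cannot be told apart.

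**Figure D2:**
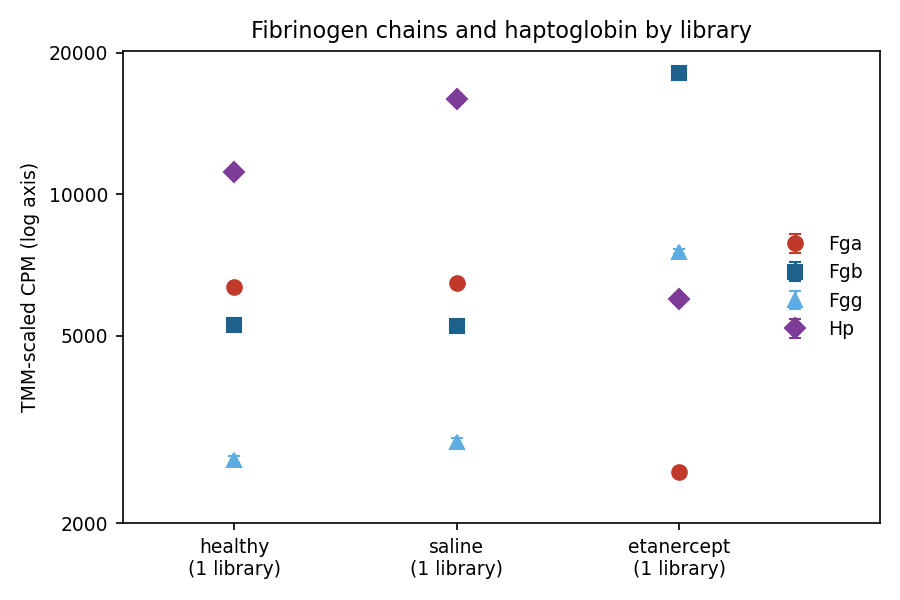
TMM-scaled CPM on a log axis for each of the 4 genes in the healthy, saline and etanercept libraries, 1 library each, with bars for the exact 95% counting interval (mostly smaller than the symbols). Within a gene (CPM is not per transcript length, so genes are not to be compared), Fga and Hp are lowest in the etanercept library, at 2564 and 5984 CPM, while Fgb and Fgg are highest there, at 18149 and 7548 CPM (per uniquely aligned read they are lowest there).

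The make-up of fibrinogen reads gives the same divergence without any scaling, since it is a ratio within a library. Fga took 44.2% of the reads of the 3 chain genes in healthy (interval 43.9 to 44.6), 44.1% in saline (43.6 to 44.5) and 9.07% in etanercept (8.89 to 9.26). The shares of Fgb were 36.8%, 35.7% and 64.2%, and those of Fgg 19.0%, 20.2% and 26.7%. These are shares of reads and not of transcripts, because no transcript lengths were at hand and a longer transcript yields more reads. Length cancels when one chain's ratio to another is compared between libraries, provided that each gene's reads were assigned alike in both. That condition was not tested. The make-up by reads was close to equal in healthy and saline, and the etanercept library differed from both.

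**Figure D3:**
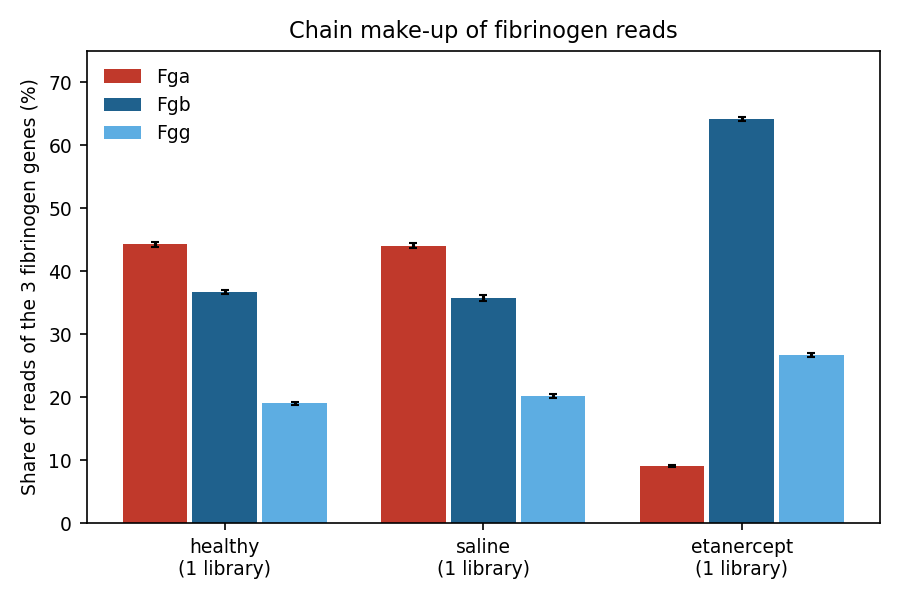
Share of each chain gene in the reads of the 3 fibrinogen genes (percent, bars from 0) in each library, with exact 95% binomial intervals for counting error. Fga holds 44.2% and 44.1% in healthy and saline and 9.07% in etanercept, where Fgb holds 64.2%.

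Pairs of chains showed which of them had parted. There were 1.20 reads of Fga per read of Fgb in healthy, 1.23 in saline and 0.141 in etanercept. This ratio was 8.72-fold lower in etanercept than in saline (exact conditional interval 8.46 to 8.99), and in saline it was 1.02 times that in healthy (0.998 to 1.05). For Fga per Fgg the values were 2.33, 2.18 and 0.340 reads, a 6.42-fold difference between etanercept and saline (6.20 to 6.65). Fgg per Fgb moved far less, with 0.517 reads in healthy, 0.565 in saline and 0.416 in etanercept, a 1.36-fold difference between the last 2 (1.32 to 1.40). Between saline and etanercept, beta and gamma chain reads therefore shifted far less against each other than either did against the alpha chain.

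Ratios to Hp gave the same grouping between saline and etanercept, with Fga keeping nearly its ratio to Hp while Fgb and Fgg did not. Reads of Hp per read of Fga were 1.76 in the healthy, 2.46 in the saline and 2.33 in the etanercept library, and the last 2 differed by 1.05-fold (1.02 to 1.09). Hp per Fgb was 2.12, 3.03 and 0.330, a 9.19-fold lower value in etanercept than in saline (8.98 to 9.41). Hp per Fgg was 4.10, 5.37 and 0.793, lower by 6.77-fold (6.58 to 6.96). Between saline and healthy, Hp stood 1.40-fold higher relative to Fga (1.37 to 1.43), 1.43-fold relative to Fgb (1.40 to 1.46) and 1.31-fold relative to Fgg (1.27 to 1.35). The higher Hp in the saline library thus did not extend to any fibrinogen chain at the same size.

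Summed, the 3 chain genes hid most of this. They took 77095 reads (14353 CPM) in the healthy, 47579 reads (14704 CPM) in the saline and 93836 reads (28260.4 CPM) in the etanercept library. The sum was 1.02-fold higher in saline than in healthy (interval 1.01 to 1.04) and 1.92-fold higher in etanercept than in saline (1.90 to 1.94). On this scale Fgb and Fgg were higher and Fga was lower. The direction of the sum turned per uniquely aligned read, of which the 3 genes took 1.02% in healthy, 1.39% in saline and 0.538% in etanercept.

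All genes with enough reads give the background of these folds. In saline over healthy none of the 4 genes was called, where 9.32% of 9755 tested genes were called higher and 9.66% lower, together 19.0%. The median log2 fold of the 4 genes was 0.08, beside -0.07 over all tested genes. In etanercept over saline, Fgb and Fgg were called higher, where 18.3% of 9991 tested genes were, and Fga and Hp were called lower, where 19.2% were. All 4 genes were thus past 2-fold, against 37.5% of tested genes. The 4 genes were chosen with earlier results of these data known, so such shares are descriptions and not an independent comparison. The median log2 fold of the 4 genes was 0.0043, beside 0.0040 for all tested genes, because the genes split evenly by direction. A higher fold than that of Fgb was seen in 7.92% of tested genes and than that of Fgg in 12.3%, and a lower fold than that of Fga in 13.3% and than that of Hp in 12.3%. Differences of this size were therefore common between these libraries. In etanercept over healthy, which shares the etanercept library with the comparison before it, Fgb and Fgg were called higher (21.9% of 10069 tested genes), Fga was called lower (24.0%) and Hp was not called, so 3 of the 4 genes were past 2-fold against 46.0% of tested genes.

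**Figure D4:**
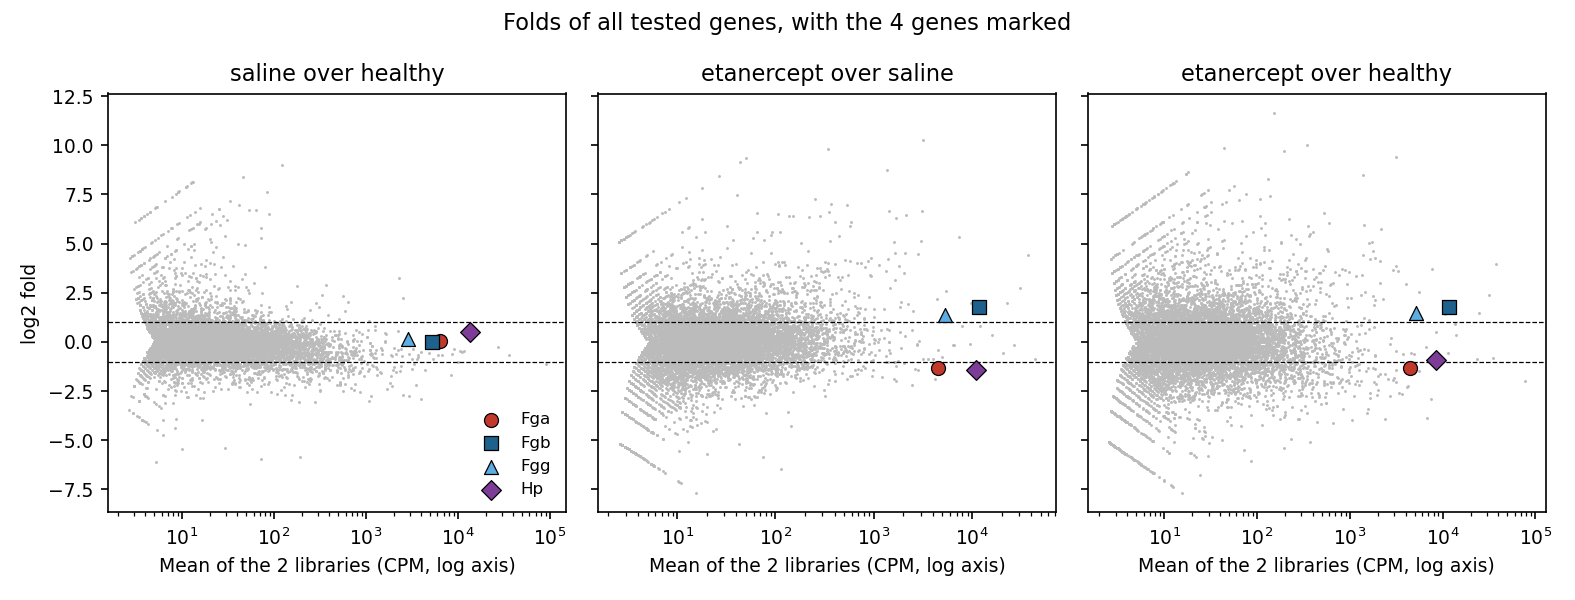
log2 fold of every tested gene (grey) against its mean CPM in the 2 libraries (log axis) for each comparison, with the 4 genes marked and dashed lines at a 2-fold difference. In etanercept over saline Fgb and Fgg lie above the upper line, at 1.79 and 1.35, and Fga and Hp below the lower one, at -1.34 and -1.41.

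In the class of 103 genes that average 1000 CPM or more, which includes these 4, 11 had a lower etanercept over saline fold than Fga and 8 a lower one than Hp. In this class 23 had a higher fold than Fgb and 26 than Fgg, and 28.2% were called higher and 20.4% lower. In etanercept over healthy, 37 of the class had a lower fold than Fga and 41 than Hp. Higher folds than those of Fgb and Fgg were held by 23 and 24, and 28.2% were called higher and 39.8% lower. In saline over healthy the class median log2 fold was -0.63, with 2.91% called higher and 30.1% lower. Of the class, 83, 81, 87 and 93 had a lower fold there than Fga, Fgb, Fgg and Hp.

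The 4 genes formed 2 pairs by their profile over the libraries. Likeness was measured as the Euclidean distance between log2(CPM + 0.5) values centred on each gene's mean over the 3 libraries. The distance was 0.32 between Fgb and Fgg and 0.37 between Fga and Hp, but 2.54 between Fga and Fgb and 2.23 between Fga and Fgg. Of 1361 other genes that average 100 CPM or more, 87.8% had a profile closer to that of Fga than Fgb had, and 84.8% one closer than Fgg had. Only 2.35% were closer to Fgb than Fgg was, and 5.14% were closer to Fga than Hp was. With 3 libraries, in which etanercept dominates the distance, these are descriptions.

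The genes most like Hp by this measure were ENSRNOG00000012464 (distance 0.06), with 620.1 CPM in healthy, 938 in saline and 347 in etanercept, and ENSRNOG00000020618 (0.08), with 275, 409 and 142 CPM. Closest to the mean profile of the 3 chains were ENSRNOG00000050519 (0.02), with 140.2, 147 and 219 CPM, and ENSRNOG00000009713 (0.03), with 91.0, 93.3 and 145 CPM. That mean lies between the low Fga and the high Fgb and Fgg in the etanercept library and describes none of the chains.

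How far each gene stood above or below depended on what the libraries were scaled to. Per total gene reads, without TMM, saline over healthy log2 folds were larger by 0.45 for every gene. Fga took 0.569%, 0.793% and 0.234% of gene reads in healthy, saline and etanercept, Fgb 0.473%, 0.643% and 1.66%, Fgg 0.244%, 0.363% and 0.689%, and Hp 1.001%, 1.95% and 0.546%. By that measure all 4 genes were higher in saline than in healthy, none by 2-fold, with Hp nearest at a log2 fold of 0.96. Etanercept over saline folds were lower by 0.42, which left Fgb called at 1.36 and took Fgg to 0.92, short of 2-fold.

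Per uniquely aligned read, a measure that also counts reads outside genes, the directions of Fgb and Fgg in the etanercept library turned. Fgb took 0.375% of uniquely aligned reads in the healthy, 0.498% in the saline and 0.345% in the etanercept library, and Fgg 0.194%, 0.281% and 0.144%. Fga took 0.452%, 0.614% and 0.0488%, and Hp 0.794%, 1.51% and 0.114%. The etanercept library was then lowest for each of the 4 genes. On this scale 91.2% of all tested genes were at least 2-fold lower in etanercept over saline and 1.32% higher. In etanercept over healthy 82.8% were lower and 3.17% higher. A lower level on this scale was thus not particular to these genes. Under each scaling tried Fga and Hp were lower in etanercept than in saline, whereas higher Fgb and Fgg hold relative to other gene reads and not relative to all uniquely aligned reads. The parting of Fga from Fgb and Fgg is the same under each of them, because a ratio of reads within a library holds no scaling.

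**Figure D5:**
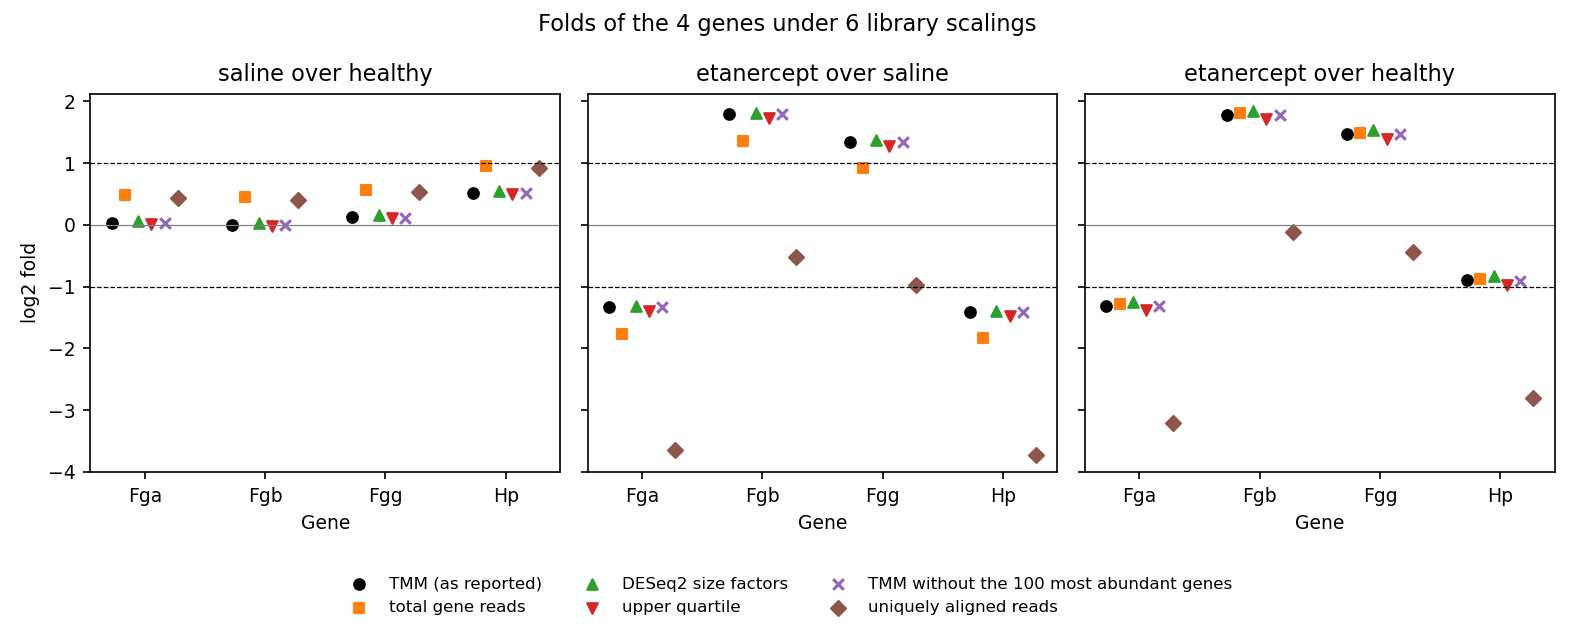
log2 fold of each gene in the 3 comparisons under 6 ways of scaling the libraries (symbols), with dashed lines at 2-fold and a solid line at no change. Scaling moves the 4 genes of a comparison by equal steps, so their spacing stays, and scaling by uniquely aligned reads takes Fgb from 1.79 to -0.53 in etanercept over saline.

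Overlap with other genes could bear on the counts of 2 of the genes. In RefSeq GRCr8 Fgb overlaps the long noncoding RNA gene LOC134485930, and Hp overlaps Txnl4b, which encodes a splicing-related thioredoxin-like protein. Whether the annotation used for the counts holds these overlaps, and whether strand was used, is not given in the sources used here. Reads in more than 1 gene were tallied apart from gene counts, and their share of uniquely aligned reads was 0.729% in the healthy, 0.871% in the saline and 1.69% in the etanercept library. Their part in the values of Fgb and Hp was not tested. Nor was the part of reads in no gene, or aligned at several places, in the values of Fga, Fgb, Fgg or Hp.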

How the data were processed

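The authors deposited unnormalized read counts for Ensembl gene identifiers, 1 table for each of 3 libraries. Per the labels' protocols, ribosomal RNA was depleted from total RNA and libraries were made with an Ion Torrent total RNA kit. The submitters' processing notes name TopHat2 2.0.13 and HTSeq 0.6.1. The genome build, annotation and strand setting used are not given in the sources here. Rows for reads in no gene or more than 1 held 20.6% (healthy), 22.5% (saline) and 79.1% (etanercept) of the uniquely aligned reads and stayed out of library sizes.

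Counts were scaled by TMM (edgeR 4.0.16, R 4.3.3), with factors of 0.896, 1.22 and 0.912. A minimum of 5 CPM equals 26.9, 16.2 and 16.6 counts. Fold intervals are Clopper-Pearson intervals of the share of 2 counts, and ratio intervals are exact conditional odds ratio intervals (scipy 1.17.1). No test between groups was run, since each has 1 library. Calls and intervals were tried on counts simulated with counting error alone. Such counts hold no variation between animals or preparations, so the trial bears on no result here. Alternatives were DESeq2 1.42.0 size factors, upper quartile factors, TMM without the 100 most abundant genes, total gene reads, uniquely aligned reads, and other pseudocounts, CPM minimums and fold thresholds.

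The 4 genes and the lists were chosen with earlier results of these data known. The rule for other genes named took the 2 identifiers nearest in profile to Hp and the 2 nearest to the mean of the chains, among those averaging 100 CPM or more.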

Additional observations from a re-analysis of the deposited data

Results flagged for a closer look

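Relative to healthy, Hp, Fga and Fgb had TMM-scaled folds of opposite sign in the saline and etanercept libraries. The log2 folds over healthy were 0.51 in saline and -0.90 in etanercept for Hp, 0.029 and -1.31 for Fga, and -0.0053 and 1.78 for Fgb. The difference was not tested, since each group is 1 library, and for Fgb the saline interval includes no change. The opposite sign of Fgb was lost with DESeq2 size factors (0.036 and 1.85) and with total gene reads (0.44 and 1.81).

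The shares of reads tallied outside single genes were larger than in healthy in both libraries made after hepatectomy. Of uniquely aligned reads, 21.7% (saline) and 77.4% (etanercept) lay in no gene, against 19.9%. A further 0.871% and 1.69% lay in more than 1 gene, against 0.729%.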

How the results depend on the processing

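No paired analysis was possible because each group is 1 library, and no library could be left out. Upper quartile scaling, TMM without the 100 most abundant genes and pseudocounts of 0 and 5 each left all 12 folds (4 genes in 3 comparisons) in their direction and on their side of 2-fold. With DESeq2 size factors 11 of 12 did so, Fgb in saline over healthy turning from -0.0053 to 0.036 (log2). With total gene reads 10 did: Fgb in saline over healthy became 0.44 and Fgg in etanercept over saline 0.92. With uniquely aligned reads as library size 6 did. Fgb then stood at 0.41 in saline over healthy, -0.53 in etanercept over saline and -0.12 in etanercept over healthy, Fgg at -0.97 and -0.43 in the latter comparisons, and Hp at -2.80 in etanercept over healthy, past 2-fold. This setting both drops the TMM factors and counts reads outside genes: it shifted log2 folds by 0.41 in saline over healthy and -2.32 in etanercept over saline, where total gene reads, which only drops the factors, shifted them by 0.45 and -0.42. A 1.5-fold threshold added Hp in etanercept over healthy (-0.90). A 4-fold threshold left no call, with etanercept over saline at -1.34 for Fga, 1.79 for Fgb, 1.35 for Fgg and -1.41 for Hp, and etanercept over healthy at -1.31, 1.78 and 1.47 for the chains in that order.

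Levels of all 4 genes in a library change by 1 multiple. For the healthy, saline and etanercept libraries it was 0.896, 1.22 and 0.912 with total gene reads, 0.711, 0.948 and 0.190 with uniquely aligned reads, and 1.02, 1.01 and 0.969 with upper quartile factors. DESeq2 gave 0.975 for healthy and 1.02 for etanercept.

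The background counts moved by over 1.5 times in some settings. In saline over healthy, 909 higher and 942 lower genes became 1987 and 363 with total gene reads, 1712 and 350 with uniquely aligned reads, 1562 and 1510 at a minimum of 1 CPM, 368 and 582 at 20 CPM, and 2701 and 2426 with no minimum. In etanercept over saline, 1827 and 1915 became 1092 and 3204, 120 and 8305, 2449 and 3015, 1180 and 905, and 3185 and 4893 in the same order. In etanercept over healthy, 2210 and 2417 became 265 and 6915 with uniquely aligned reads, 1350 and 1361 at 20 CPM, and 3464 and 4882 with no minimum. With uniquely aligned reads 1.32% of tested genes were higher and 91.2% lower in etanercept over saline. The same shares in etanercept over healthy were 3.17% and 82.8%. Depth does not limit the 4 genes, whose smallest count is 8514.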
